A study of Arabidopsis thaliana with 12 samples.

Results

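The 9 plastid genes described here carry introns that are not targets of Maturase K (MatK), the splicing protein encoded inside the *trnK* intron. They are *rps16*, *rpl16*, *rpoC1*, *clpP*, *ycf3*, *ndhA*, *ndhB*, *trnG* (*trnG-UCC*) and *trnL* (*trnL-UAA*). They were chosen by name and by annotated coordinates, not by measured values. They make up 9 of the 18 plastid genes with a cis-spliced intron and hold 11 of the 20 introns; 7 genes hold the target introns, and the other 2 are *petB* and *petD*. The count tables are cut into segments, and member segments are those that overlap, on its strand, the whole gene for *rps16*, *trnG-UCC* and *ycf3*, both introns with exon 2 for *clpP*, and the intron for the other 5. They are 13 of 555 in the precipitate table and 59 of 574 in the input table.

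RNA was sequenced from anti-YFP precipitates and from the matching inputs of 10-day-old Arabidopsis seedlings, in 3 pools of 10 g per line, which gives 12 libraries. One line expressed *At*MKIP1-YFP, a protein of the MatK complex, in the *mkip1-2* -/- mutant. The other expressed *At*BE3-YFP, a starch branching enzyme used as control bait, in the wild type Col-0 with its *At*MKIP1 gene intact. Both transgenes were driven by the constitutive *UBQ10* promoter, so the lines differ in bait and in background. The number of mapped reads ranged from 119799 to 319005 in precipitates and from 2213500 to 2868106 in inputs. Inputs were depleted of ribosomal RNA and fragmented, and precipitates were not, so levels are set side by side between the fractions but not compared.

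Plastid introns fold into ribozymes. Most are group II introns, which leave as a lariat and need protein helpers in plants, whereas the *trnL-UAA* intron is a group I intron. MatK serves a set of group IIA introns, and the introns of most genes described here belong to group IIB and rely on other, nucleus-encoded factors. *clpP* holds a divergent group IIA intron that is not a MatK target in tobacco, and *rps16* is a pseudogene in *Arabidopsis*, so its intron is a place marker rather than a spliced one.

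The annotated 5′ ends of 7 introns are shown because most group II introns start with a conserved GTGNG (N is any base; read on the intron's own strand in its first 5 bases only). These 5 bases are in capitals where they match.
*rpoC1*: GTGTGatttgatcgaaatttttct
*clpP* intron 1: GTGCGacttgtcagatatatcggg
*ndhA*: GTGCGattcgttgaaacagaaacg
*ndhB*: GTGCGgttcgtttgagaaattcct
*trnG-UCC*: GTGTGattcgttcctttaatccct
*rps16*: gtacgacttgaattgaaggacatt
*trnL-UAA*: aattggattgagccttggtatgga
GTGNG opened 7 of the 11 member introns, 4 of the 7 target introns and 13 of all 20 introns. The *rps16*, *ycf3* intron 1, *clpP* intron 2 and *trnL-UAA* introns did not start with it in the annotation. The member introns were 512 to 1080 nt long, with 27.8% to 39.6% G and C, against 537 to 2559 nt and 30.2% to 51.1% in the target introns. Sequences are from RefSeq, TAIR10.1, plastid.

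Levels are counts per 1000 nt and 1000000 mapped reads, where each segment's length was increased by 38 nt because a read of 39 nt counts in every segment it touches. A long segment gives 1 level to all genes in it, so most members have no value of their own. In the precipitates, *clpP* had a segment to itself (69747-74239, minus strand, 4493 nt), while *rps16* shared 4349-9967 with *trnQ* and part of *atpA*. *rpoC1* shared 13709 nt with *rps2*, *rpoC2* and *rpoB*, and *ycf3* shared 9230 nt with genes that include *rps4*, *ndhJ*, *ndhK* and *ndhC*. *ndhB* lay in a segment of 11279 nt. Of all 13 precipitate segments, 1 lay wholly inside a chosen stretch, in the *ndhA* intron; *rpl16* 81541-81594 lies wholly inside its gene but mostly in exon 2. *rpl16* 81595-83978 holds most of the *rpl16* intron together with *rps3* and part of *rpl22*, and its end reaches into a target locus. In the inputs *rps16* fell into 807-6628 together with *psbA*, *trnK* and *matK*, so no input level is given for *rps16*.

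In the inputs the protein-coding members were low and differed widely. *rpoC1*, the β′ subunit of the plastid-encoded RNA polymerase, lay in the lowest segment, at 27.5 ± 4.54 in the *At*MKIP1-YFP line and 25.7 ± 2.53 in the *At*BE3-YFP line (mean ± SD, n = 3 each, here and below). *rpl16*, a protein of the large ribosomal subunit, had 70.6 ± 11.6 and 79.6 ± 10.6. *ndhA*, a membrane subunit of the NADH dehydrogenase-like complex, had 75.0 ± 8.16 and 78.2 ± 11.1, and *ndhB*, another subunit, 144 ± 17.8 and 161 ± 15.4. *clpP*, the proteolytic subunit of the Clp protease, had 229 ± 26.6 and 228 ± 23.9, and *ycf3*, a photosystem I assembly factor, 317 ± 53.5 and 284 ± 29.8. *ndhA* and *rpl16* do not differ beyond their spread. The opposite strand, by the segments that span the same places, was higher than the members' own strand for *rpoC1* (217 ± 23.3), *ycf3* (505 ± 72.1) and *ndhA* (417 ± 57.7) in the *At*MKIP1-YFP inputs, and lower for *clpP* (98.4 ± 16.1), *rpl16* and *ndhB*, whose opposite strands lie in 1 shared segment (46.0 ± 6.31). Each is the value of 1 segment, not a reading at the member alone. For *rpoC1* that segment is 9425-27371, 17947 nt with *trnR* and the end of *trnG-UCC*. For *ycf3* it is 36874-46970, 10097 nt with *trnS* and exon 1 of *trnL-UAA*.

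In *clpP* and *ndhA* an input border fell inside the gene, and the 2 sides differed by far more than the libraries did. In *clpP* it lay in exon 2. Intron 2 shared a segment at 525 and 523 in the 2 lines with *trnP*, *rpl20* and the first exon of *rps12*, and intron 1 lay in a segment at 28.4 and 28.1 with no other gene. Because the side with intron 2 holds other genes, this is not a difference between the 2 introns alone. In *ndhA* the border lay inside the intron, with 111 and 116 on the side of exon 2, shared with *ndhG* and *ndhI*, and 33.8 and 36.2 on the side of exon 1, shared with *ndhH*, *rps15* and *ycf1*. Neither gene could therefore be given an intron level apart from its exons, and nor could *rpoC1*, *ycf3* or *ndhB*. The *rpl16* intron lay in a segment of 1952 nt with part of *rps3*, at 70.6 and 79.6, and most of its exon 2 in a segment of 7083 nt with 6 other genes, at 54.3 and 54.8.

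The *trnG-UCC* gene, which encodes a glycine tRNA, was resolved, with 34 input segments, 32 of them wholly inside it. Exon 2 was far above the intron in all 6 inputs. The intron level was 803, 925 and 1029.9 in the *At*MKIP1-YFP libraries and 1117, 851 and 1028 in the *At*BE3-YFP libraries. Exon 2 stood at 66684, 74971 and 65039.7 in the first and at 50587, 60953 and 69207 in the second. Exon over intron was 67.3-fold, a log2 intron-over-exon ratio of -6.07 ± 0.32 (SD, n = 6), with p = 0.031 in an exact two-sided paired sign-flip test, the smallest p that 6 libraries allow; it was the only member with both levels, so no adjustment over genes changes it. The intron was 714 nt and exon 2 was 49 nt, and the values rest on the segments at least 50% inside them, which cover 84.3% and 85.7% of each. The ratio was -6.23 ± 0.22 in the *At*MKIP1-YFP line and -5.91 ± 0.36 in the *At*BE3-YFP line, a difference of -0.32 with p = 0.3 in an exact permutation test of 3 against 3, whose smallest p is 0.1. For *petB* and *petD*, measured in the same way, the ratios were -2.08 ± 0.09 and -2.28 ± 0.08.

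Inside the *trnG-UCC* intron the level was not even. It lay between 280 and 771 from 8778 to 9041 in the *At*MKIP1-YFP line, between 1119 and 1745 from 9051 to 9163, between 381 and 418 from 9280 to 9334, and rose to 2198 in the 4 nt from 9376 to 9379. The segment that holds exon 1 together with upstream sequence and 109 nt of the intron stood at 3849 and 3545 in the 2 lines. The long segment that starts in the last 7 nt of exon 2 stood at 217 and 204, so the high level ended close to the annotated end of the tRNA.

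In *trnL-UAA*, a leucine tRNA, the intron was resolved by 9 segments that cover 84.0% of its 512 nt, but both exons lay in segments shared with sequence outside the gene. The intron level was lower in the *At*MKIP1-YFP inputs, at 504, 551 and 569, than in the *At*BE3-YFP inputs, at 787, 702 and 725, and the groups did not overlap. The difference was -0.45 on the log2 scale, 1.36-fold, with p = 0.1 in an exact permutation test of 3 against 3, the smallest p it can give. In pooled whole seedlings fewer cells and less RNA per cell cannot be told apart, and neither can the bait and the *mkip1-2* background of the line. The segment that holds exon 2 with the last 40 nt of the intron stood at 12644 in the *At*MKIP1-YFP line and 11527 in the *At*BE3-YFP line. Intron over this segment was -4.55 ± 0.06 and -3.96 ± 0.23 on the log2 scale, again without overlap and with p = 0.1 in the exact permutation test.

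**Figure D1:**
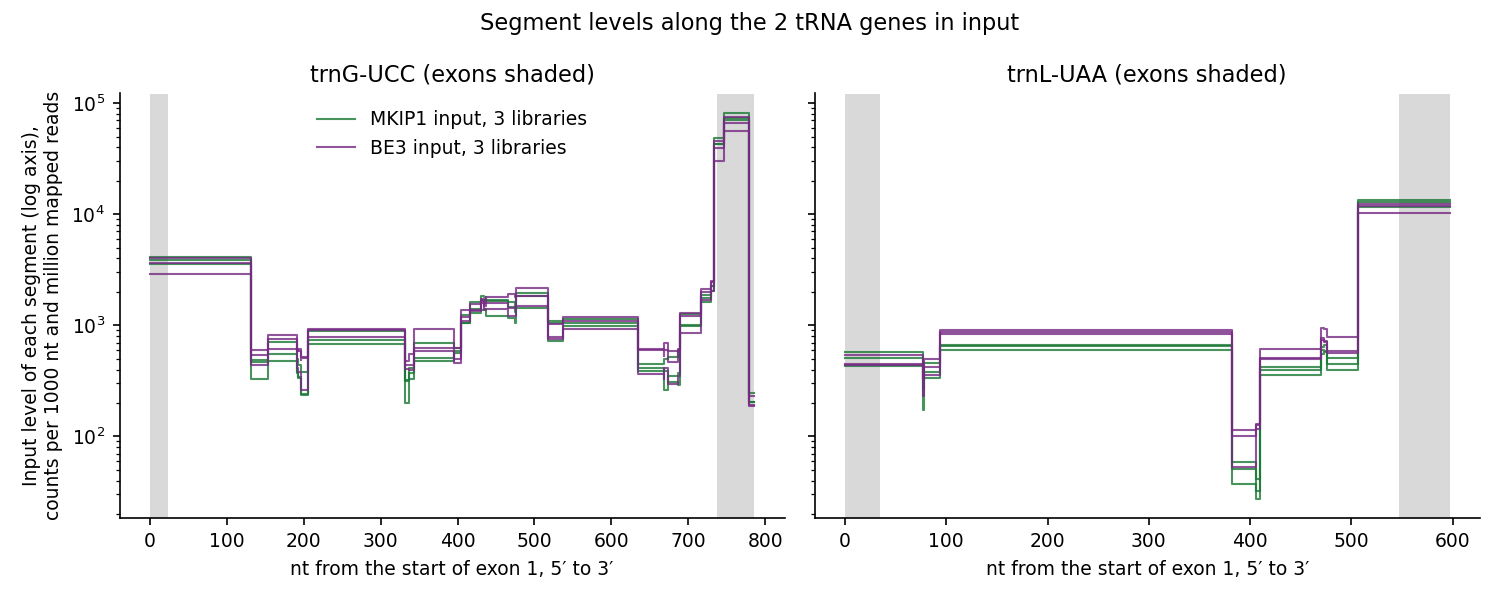
Level of each input segment (log axis, counts per 1000 nt and 1000000 mapped reads) along *trnG-UCC* and *trnL-UAA* by nt from the start of exon 1, with 1 line per library and exons shaded. Both genes rise steeply at exon 2, and in *trnL-UAA* the 3 *At*MKIP1-YFP inputs lie below the 3 *At*BE3-YFP inputs over most of the intron, while both dip together at about 400 nt.

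The *trnL-UAA* intron had a dip at 47276-47303, where the mean level in the *At*MKIP1-YFP inputs was 48.7 and 33.8 in its 2 segments, and the sequence around it is shown with 47300-47303, the segment of the lowest fold change between the inputs, in capitals.
*trnL-UAA* intron, 47276-47323, plus strand: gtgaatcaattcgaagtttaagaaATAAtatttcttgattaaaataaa
Its counts were 3, 3 and 5 in the *At*MKIP1-YFP inputs and 15, 11 and 13 in the *At*BE3-YFP inputs, so the groups did not overlap. The log2 fold change was -1.84 ± 0.51 (SE), with an adjusted p of 0.014 in edgeR's quasi-likelihood test, above the threshold of 0.01. The 24 nt before it had 6 to 17 counts per library and did not pass the filter on low counts.

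Between the 2 inputs no member segment passed the test, 0 of the 58 that passed the filter (edgeR, adjusted p under 0.01), where 1.75% of all 572 segments passed in either direction and 0.175% were lower. At an unadjusted p under 0.05 there were 11 of 58, near the background of 15.9% of all 572 segments and 16.5% of the 468 others outside the target loci. All 8 tested segments inside the *trnL-UAA* intron had a negative log2 fold change, from -1.84 to -0.12 with a median of -0.45, and in 6 the groups did not overlap, against 4.72% of all segments that were lower without overlap. These segments share reads and are not independent. Under TMM scaling 2 of them passed, 46988-47275 at -0.53 (adjusted p = 0.0028) and 47300-47303 at -1.94 (adjusted p = 0.0070). By DESeq2 with its own size factors only 46988-47275 did, at -0.51 (adjusted p = 0.0057). Its counts were 432, 550 and 622 in the *At*MKIP1-YFP inputs and 806, 611 and 689 in the *At*BE3-YFP inputs. The share of all segments that passed under TMM or DESeq2 is not given here, so these calls have no background beside them. In the *trnG-UCC* intron 26 of 30 segments were negative, with a median of -0.21, but in only 1 did the groups not overlap. The highest member value was 0.67 ± 0.32 at *clpP* 70813-70818, with 14, 36 and 26 counts against 18, 12 and 16.

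In the precipitates every member recovered fewer reads with *At*MKIP1-YFP than with *At*BE3-YFP, per mapped read. So did most other segments outside the target loci. Of those 122, 107 had a negative log2 fold change, and 71.3% were lower without overlap of the groups. The levels of *rps16*, whose product is a protein of the small ribosomal subunit where the gene is active, were 630.4, 661 and 589 against 971, 1028 and 1117. Those of *clpP* were 544, 549 and 491 against 865, 877 and 866. *ycf3* had 644 ± 58.3 against 977 ± 104, *ndhB* 649.6 ± 27.2 against 1089.7 ± 203, *ndhA* 591 ± 96.9 against 1019 ± 45.2, and *rpoC1* 174 ± 14.9 against 230.2 ± 25.1. The groups did not overlap for any of these. For *rpl16* they did, with 519, 580.3 and 538 against 576, 852 and 929. The 2 tRNA genes were the highest members. *trnG-UCC* had 4490.1, 4324 and 3822 against 6726, 7540 and 6431, and *trnL-UAA* 4044, 3722 and 3192 against 7418, 7337 and 7695. The opposite strand was also lower with *At*MKIP1-YFP without overlap, for example 47.1 ± 5.23 against 76.9 ± 7.27 at *rps16* and 812 ± 53.6 against 1456 ± 59.3 at *clpP*. These are not 9 separate places, since the opposite strand of *trnG-UCC* is the *rps16* segment, that of *trnL-UAA* is the *ycf3* segment, and *rpl16* and *ndhB* share 1.

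**Figure D2:**
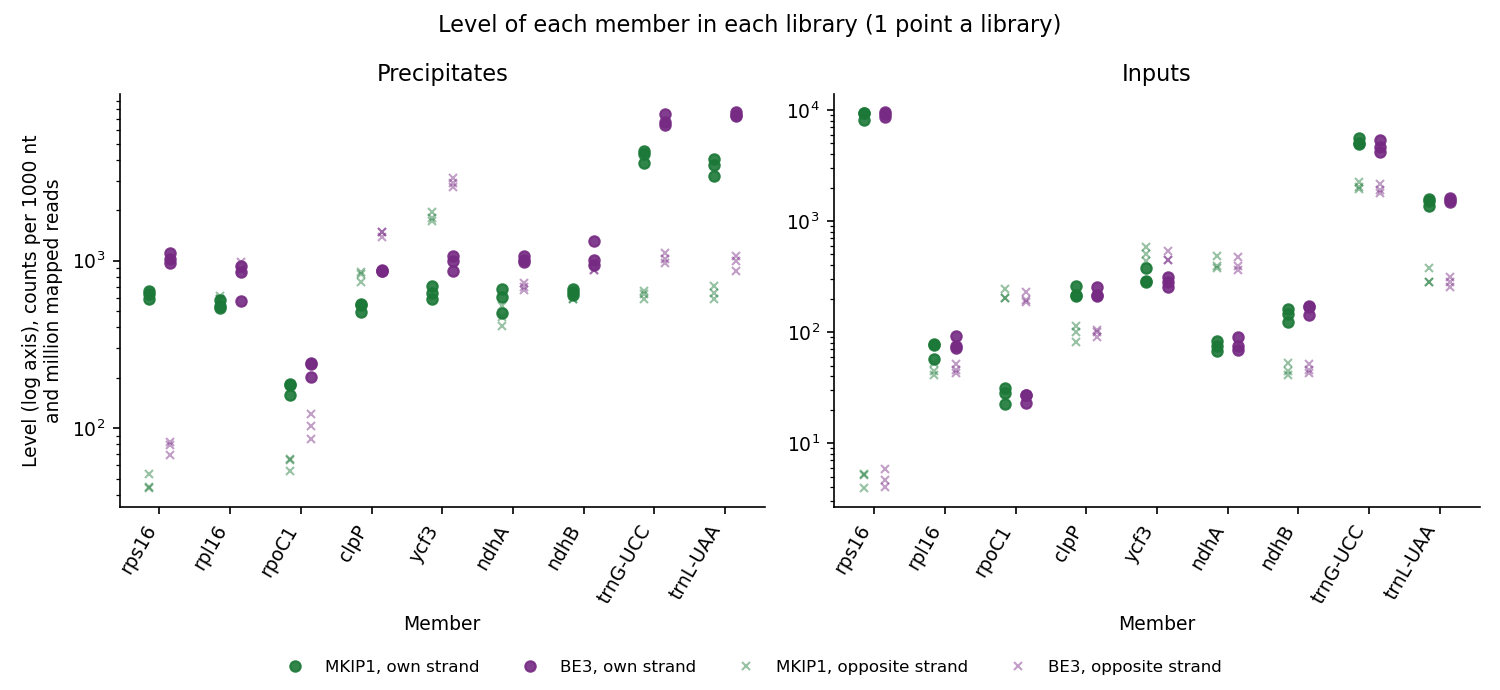
Level of each member in each library (log axis, counts per 1000 nt and 1000000 mapped reads) on its own strand (circles) and the opposite strand (crosses), for the 2 lines in precipitates and inputs. Precipitate levels of *At*BE3-YFP lie above those of *At*MKIP1-YFP for each member, except that 1 *rpl16* library lies among them, while input levels of the lines overlap; the *rps16* input value is that of a segment shared with *psbA*.

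By edgeR, 11 of the 13 member segments were lower in the *At*MKIP1-YFP precipitate and 0 were higher, with mapped reads as library size. The share lower was 15.2% of all 553 segments tested, but 59.8% of the 122 other segments outside the target loci. The groups did not overlap in 12 of 13, against 71.3% of those 122 and 17.9% of all segments. The median log2 fold change of the members was -0.73, the same as the -0.73 of the other segments outside the target loci, and that of the target loci was 2.61. Without the *At*MKIP1-YFP replicate 3 library, 7 of 13 passed, and the share fell to 46.7% of the 122 others and to 11.6% of all segments. When every segment that overlaps a member gene, exons included, was counted, a choice made after the values were seen, 14 of 16 were lower; the 3 added segments, all of *rpl16*, are among the 122 here. The 2 segments that did not pass were *rpoC1* at -0.40 ± 0.17 (SE, adjusted p = 0.040) and *rpl16* 81595-83978 at -0.49 ± 0.21 (adjusted p = 0.034). DiffSegR draws segment borders from the fold change between the baits that is then tested, and the p-values do not allow for it.

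Of the 13 member segments, 6 lay above the median of those 122 and 7 below. *rps16* (-0.73 ± 0.17), *clpP* (-0.72 ± 0.16), *ndhB* (-0.75 ± 0.19) and *ndhA* 117622-120914 (-0.76 ± 0.18) lay within 0.04 of it. *ycf3* (-0.60 ± 0.18), *ndhA* 120947-129489 (-0.62 ± 0.17) and the *trnG-UCC* segment 7894-9352 (-0.62 ± 0.18), which holds exon 1 and most of the intron, lay above it, as did *rpl16* 81595-83978 and *rpoC1*, the highest. The lowest 4 were *trnL-UAA* 46757-48112 (-1.03 ± 0.18), *ndhA* 120915-120946 (-1.11 ± 0.25), *trnG-UCC* 9353-9438 (-1.30 ± 0.21) and *rpl16* 81541-81594 (-1.60 ± 0.30). Their adjusted p-values (edgeR) against no change were 7.8e-05, 6.9e-04, 5.2e-05 and 1.6e-04.

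**Figure D3:**
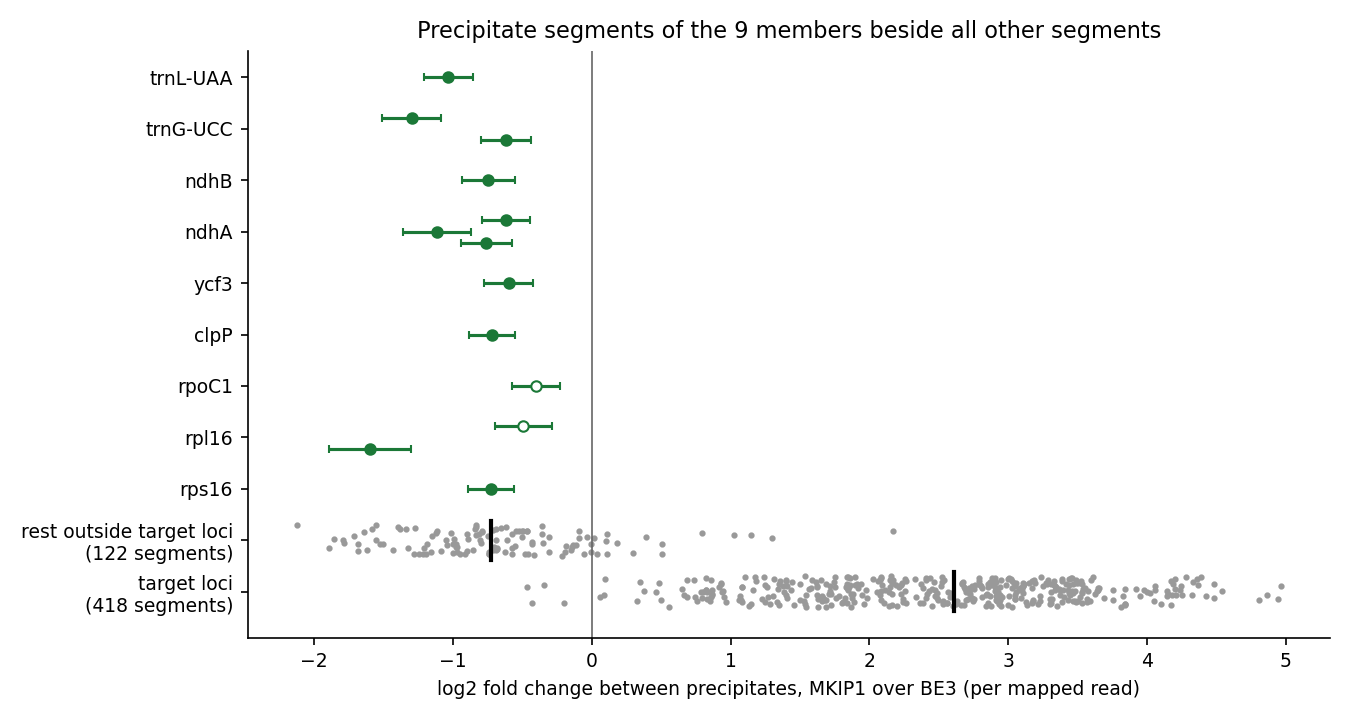
Log2 fold change of *At*MKIP1-YFP over *At*BE3-YFP precipitate for each member segment (circles with SE, filled where the adjusted p is under 0.01), beside every other segment outside the target loci and in the target loci (grey points, medians as black bars). The members run from -1.60 to -0.40, within the range of the other segments outside the target loci and below nearly all of the target loci.

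The size, and for some members the sign, depends on what the libraries are scaled to. A change of library size shifts all segments by about the same amount, so it cannot move the members relative to the other segments. With the libraries scaled on the median of segments outside the target loci, 0 of 13 member segments passed by edgeR, and the median became 0.01, with values from -0.85 to 0.33 and a smallest adjusted p of 0.016, at *trnG-UCC* 9353-9438 (-0.56). At an adjusted p of 0.018, *rpl16* 81541-81594 (-0.85) was next. With raw counts 0 of 13 passed, at a median of -0.14, and with TMM factors 13 of 13, at -2.89. The median of the other segments outside the target loci was -0.16 with raw counts and -2.87 with TMM factors. Within a library and free of any scaling, the summed member counts over the summed counts of the rest outside the target loci differed by -0.13 on the log2 scale between the baits (p = 0.3, exact permutation test of 3 against 3), and over the target loci by -3.61, without overlap (p = 0.1, the smallest possible). In the fit with mapped reads, 395 of the 418 tested segments of the target loci were higher with *At*MKIP1-YFP and 0 were lower. The ratio over the target loci follows from that and is not a result about the members. Both ratios were chosen after the values were seen. Of the single members, *trnL-UAA* over the rest differed by -0.44 and *clpP* by -0.12 without overlap, each with p = 0.1 in the exact permutation test and an adjusted p of 0.45 over the 9 members.

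**Figure D4:**
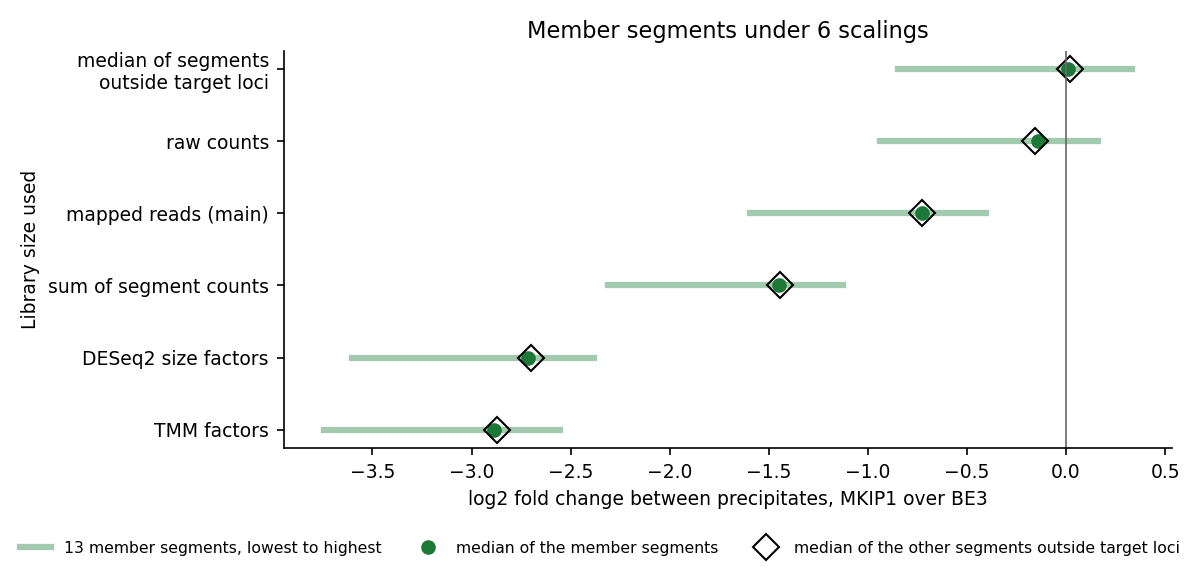
Log2 fold change of *At*MKIP1-YFP over *At*BE3-YFP precipitate for the 13 member segments (bar from lowest to highest, circle at the median) and the median of the other segments outside the target loci (diamond) under 6 library sizes. The 2 medians shift together, as they must when only library sizes change, from -2.89 for the members with TMM factors to 0.01 with scaling on segments outside the target loci.

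By intron, weighted by overlap, the 11 member introns lay between -1.03 (*trnL-UAA*) and -0.40 (*rpoC1*) in the precipitates, with a median of -0.71. These are the values of the segments that hold the introns, which also hold exons or other genes. *ycf3* introns 1 and 2 share 1 value (-0.60), and so do *clpP* introns 1 and 2 (-0.72). The *petB* and *petD* introns, in 1 shared segment, had -0.58. The 7 target introns ran from -0.05 (*rps12* intron 2) to 3.39 (*trnA*), with a median of 1.91, so no member intron reached the lowest target intron.

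The 4 low segments are short, apart from that of *trnL-UAA*, and 3 of them are shown because their borders are fine enough to place. In the *trnG-UCC* segment the capitals mark exon 2, in the *ndhA* segment the 7 nt of 2 input segments at the same place (120922-120928), and in the *rpl16* segment the last 7 nt of the intron, ahead of exon 2.
*trnG-UCC*, 9353-9438, plus strand: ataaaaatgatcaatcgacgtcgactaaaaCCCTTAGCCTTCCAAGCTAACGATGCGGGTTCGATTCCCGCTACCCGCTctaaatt
*ndhA*, 120915-120946, minus strand: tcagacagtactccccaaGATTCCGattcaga
*rpl16*, 81541-81594, minus strand: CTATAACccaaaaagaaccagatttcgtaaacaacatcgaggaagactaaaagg
The *trnG-UCC* segment had 142, 188 and 130 counts with *At*MKIP1-YFP and 235, 329 and 184 with *At*BE3-YFP. Its level, 4677 ± 731 against 11497 ± 1078, was above that of the segment before it, which holds upstream sequence, exon 1 and most of the intron, in all 6 precipitates, by 1.22-, 1.11- and 1.03-fold with *At*MKIP1-YFP and 1.92-, 1.42- and 2.15-fold with *At*BE3-YFP.

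The *ndhA* segment had 42, 60 and 35 counts with *At*MKIP1-YFP and 56, 85 and 54 with *At*BE3-YFP, at levels of 2455 and 5379. In all 6 precipitates it was above its neighbours, 3.01-fold with *At*MKIP1-YFP and 3.88-fold with *At*BE3-YFP on the side of exon 2, and 10.0-fold and 14.4-fold on the side of exon 1. The inputs had a short high stretch at the same place, where the 6 nt from 120922 stood above the segment towards exon 2 in 6 of 6 libraries, 3.56-fold in the *At*MKIP1-YFP line and 2.62-fold in the *At*BE3-YFP line, with 41, 37 and 56 counts against 45, 31 and 25. Between the inputs it did not pass the test (0.36 ± 0.24).

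The *rpl16* segment had 23, 42 and 38 counts with *At*MKIP1-YFP and 47, 80 and 71 with *At*BE3-YFP, and covers 47 nt of exon 2. It was above the shared segment that holds most of the intron in 6 of 6 precipitates, 2.54-fold with *At*MKIP1-YFP and 5.50-fold with *At*BE3-YFP. Further into exon 2, the 64 nt from 81407 to 81470 reached 3587 and 9772, the highest level in the gene, against 281 and 503 in the segment beyond. The inputs also had their highest *rpl16* level in exon 2, 300 and 235 at 81464-81510, which is 4.27-fold and 2.87-fold above the segment shared by the intron and *rps3*.

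Set against the inputs, the members' precipitate difference was of much the same size. Each precipitate segment was paired with the input segments at least 50% inside it, and 12 of the 13 could be paired. In the test of bait by fraction (edgeR, 12 libraries), 8 of 12 were lower, where 52.5% of all 99 segments and 66.7% of the 66 other segments outside the target loci were lower. The median was -0.72 for the members and -0.83 for those 66. The lowest were *trnG-UCC* 9353-9438 at -1.49 ± 0.22 (adjusted p = 2.1e-06), *ndhA* 120915-120946 at -1.41 ± 0.33 (adjusted p = 5.2e-04) and *trnL-UAA* at -1.14 ± 0.18 (adjusted p = 8.1e-06). That *ndhA* value is set against only 7 nt of input, in 2 adjoining segments that share reads. Their log2 fold changes between the inputs were 0.36 and 0.23, and neither passed. *rps16* (-0.84), *clpP* (-0.79), *ndhB* (-0.74), *ycf3* (-0.70) and *trnG-UCC* 7894-9352 (-0.62) also passed, while *rpl16* 81595-83978 (-0.32), *rpoC1* (-0.49) and the 2 long *ndhA* segments (-0.64 and -0.52) did not. The only input segment that holds *rps16*, 807-6628, lies under 50% inside 4349-9967, so no *rps16* input enters its value. For *clpP* the input segment 66534-70812, with exon 3 and intron 2, was left out in the same way. With scaling on segments outside the target loci 1 of 12 passed, *trnG-UCC* 9353-9438 at -0.73 (adjusted p = 0.0089), and with TMM factors 0 of 12. The share of the other segments that passed in these 2 scalings is not given here.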

How the data were processed

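The deposited values are counts of reads per segment and strand. The authors trimmed reads with cutadapt, kept 18 to 60 nt, mapped them with STAR to the TAIR10 plastid genome without the second inverted repeat, removed duplicates by 8-nt identifiers with UMI-tools, and cut segments with DiffSegR. Versions are not given in the sources used here. STAR could split reads over introns within a fixed range of lengths set by the authors. How such reads were counted in segments is not given in the sources used here. Reads that touch several segments were counted in each of them. The authors' fold changes and p-values were not used.

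Groups and replicate numbers came from the labels. The deposited numbers of mapped reads served as library sizes in edgeR 4.0.16 (R 4.3.3; quasi-likelihood F test, minimum count 10, total 15, Benjamini-Hochberg over all segments of a table, called at an adjusted p under 0.01); SE is the log2 fold change over the square root of F. DESeq2 1.42.0 was an alternative. Levels were computed with numpy 2.4.6 and pandas 2.3.3 in Python 3.11.15, adjusted with statsmodels 0.14.6 and drawn with matplotlib 3.10.9. A level weights segments by their overlap; an intron or exon has its own level where segments at least 50% inside it cover at least 50% of it. The fits were also run on simulated counts, drawn independently for each segment with balanced rises and falls. Real segments share reads and mostly rose in the *At*MKIP1-YFP precipitates, so that run checks the code and not the calls. Exons were read from the RefSeq annotation of the same plastid accession.

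The members, lists and tests were chosen with earlier results of these data known. Every member was named, with segments that passed a test and those of the highest and lowest fold change. The within-library ratios to the other segments and to the target loci were chosen after the values were seen. Replicates are pools of seedlings. Precipitate and input of 1 number share a pool; correlations of their deviations were -0.12 to 0.16, and precipitates of the 2 baits share only a number. The alternatives were other library sizes, no filter, leaving out each replicate, a replicate block, other segment lengths and stricter overlap.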

Additional observations from a re-analysis of the deposited data

Results flagged for a closer look

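For 8 of the 12 paired member segments the difference between the baits in the precipitate and the difference between the lines in the input were not the same, by the edgeR test of bait by fraction at an adjusted p under 0.01. All 8 were lower, as were 66.7% of the 66 other segments outside the target loci and 52.5% of all 99, so the count does not set the members apart. On the log2 scale the precipitate difference minus the input difference was -1.49 for *trnG-UCC* 9353-9438, -1.41 for *ndhA* 120915-120946, -1.14 for *trnL-UAA* 46757-48112 and -0.84 for *rps16* 4349-9967. It was -0.79 for *clpP* 69747-74239, -0.74 for *ndhB* 86174-97452, -0.70 for *ycf3* 41983-51212 and -0.62 for *trnG-UCC* 7894-9352. These values are per mapped read, and the median of the other segments outside the target loci was -0.83, so 5 of the 8 lay within 0.21 of what those segments showed. The *rps16* value rests on no *rps16* input, and the *clpP* value on no input of intron 2 or exon 3. Groups of 3 libraries were not tested for single libraries that stand apart.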

How the results depend on the processing

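Of the 13 member segments, 11 passed as lower in the *At*MKIP1-YFP precipitate, 7 to 12 with 1 library left out, 9 with the replicate block, and 13 with the sum of counts, TMM or DESeq2. With 1 library left out, 44.3% to 62.3% of the 122 other segments outside the target loci were lower. Their median log2 fold change was -1.44 with the sum of counts, -2.87 with TMM and -2.70 with DESeq2. Their share lower in those settings and with the block is not given here. Among member segments at least 50% inside the stretch that chose them, 2 of 2 passed, *trnG-UCC* 9353-9438 and *ndhA* 120915-120946. Among those at least 50% inside a member gene with its exons, 5 of 5 passed, a count added after the values were seen. In the same fit 59.8% of the 122 other segments outside the target loci were lower, and these small counts do not set the members apart. 0 member segments passed with raw counts or with scaling on segments outside the target loci. With the latter scaling the values that turned positive were *rpoC1* 0.33, *rpl16* 81595-83978 0.25, *ycf3* 0.14, *ndhA* 120947-129489 0.12, *trnG-UCC* 7894-9352 0.11, *clpP* 0.015 and *rps16* 0.0091, and the median of the members was 0.0091. With raw counts *rpoC1* turned to 0.16 and *rpl16* 81595-83978 to 0.082. This follows from the scaling itself, which moved the median of the other segments outside the target loci from -0.73 to 0.02 and, with raw counts, to -0.16.

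Between the inputs 0 member segments passed, 0 when any library was left out, and 0 with the replicate block. 2 passed with TMM, 1 with scaling outside the target loci and 1 with DESeq2, all in the *trnL-UAA* intron. The share of all input segments that passed under these scalings is not given here. For the difference of precipitate and input, 8 passed with the block by seedling pool and 6 to 10 with 1 library left out, but 3 with the sum of counts, 1 with scaling outside the target loci and 0 with TMM or raw counts. With mapped reads, 66.7% of the 66 other segments outside the target loci were lower. Their share in the other settings is not given here, so these counts have no background beside them. Values that turned positive were, with TMM, *rpl16* 81595-83978 0.40, *rpoC1* 0.21, *ndhA* 120947-129489 0.18, *trnG-UCC* 7894-9352 0.071 and *ndhA* 117622-120914 0.054. With scaling outside the target loci they were *rpl16* 81595-83978 0.45, *rpoC1* 0.27, *ndhA* 120947-129489 0.24, *trnG-UCC* 7894-9352 0.13, *ndhA* 117622-120914 0.11, *ycf3* 0.056 and *ndhB* 0.024. With raw counts *rpl16* 81595-83978 was 0.20, *ndhA* 120947-129489 0.0097 and *rpoC1* 0.0082, and with the sum of counts *rpl16* 81595-83978 was 0.011. Why these scalings differ beyond their construction was not tested.

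The *trnG-UCC* intron-over-exon ratio was -6.19 to -6.01 with 1 library left out, where 5 libraries allow no p under 0.0625, and -6.21 to -4.64 under other segment lengths and overlaps. The median level of the 9 members, scaled to summed segment counts, was 302 in the *At*MKIP1-YFP and 809 in the *At*BE3-YFP precipitates, in place of 627 and 1019. The correlations of same-numbered libraries did not exceed 0.1 in all pairs, so the block is a check only. Depth limits the short segments most, with as few as 3 counts per library in the *trnL-UAA* dip.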
